A study of Mus musculus with 4 samples.

Results

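The genes of 5 cell-surface mucins, Muc1, Muc3, Muc3a, Muc4 and Muc13, and the fucosyltransferase gene Fut2, were followed in single cells of mouse small-intestinal crypts. These 6 genes were picked by name from the 32285 features of the deposited gene list, and all 6 were found there. They were picked with earlier results of the same libraries known, so that their levels across cell classes and across the libraries are given as a description, with no test.

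Membrane mucins are long, heavily O-glycosylated proteins anchored in the apical membrane. They form the glycocalyx that covers the brush border beneath the secreted mucus layer. MUC13 is a short membrane mucin found on most gut epithelial cells, and MUC1 and MUC4 carry cytoplasmic tails or growth factor-like domains tied to epithelial signalling. The mouse gene Muc3 is the counterpart of the human brush-border mucin MUC17, and Muc3a is a neighbouring gene of the same family. Fut2 encodes the alpha-1,2-fucosyltransferase that caps mucin-type glycans of the gut with fucose, a sugar that resident bacteria can use, and in mice its transcription in ileal epithelium is known to respond to interleukin-22 from innate lymphoid cells.

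The study set crypt cells of mice that had been deprived of sleep against cells taken before the deprivation. The 2D group had 2 libraries (2D-1 and 2D-2), and the 0D group had 2 libraries (0D-1 and 0D-2). The labels do not spell out D, and strain, sex, age and the number of mice behind each library are not given in them. Crypts of the small intestine were released with EDTA in all 4 libraries, and single cells were counted with the 10x Genomics 3' v2 chemistry, in which each unique molecular identifier (UMI) stands for 1 captured transcript end.

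After filtering, 7025 cells of 2D-1 and 7988 of 2D-2 were kept, against 7586 of 0D-1 and 7132 of 0D-2. Their UMIs summed to 110587001 and 93090534 in 2D-1 and 2D-2, and to 113758758 and 110817632 in 0D-1 and 0D-2, and any pair of libraries shared between 20 and 32 cell barcodes. Cells were placed in 7 epithelial classes by scores over marker genes. These were 2896 stem, 3228 transit-amplifying (dividing, with no lineage score), 3415 enterocyte, 4062 Paneth, 9930 goblet, 2455 enteroendocrine and 1158 tuft cells, and 2550 cells stayed unassigned. A gate of this kind is a range of a score, not a cell type, and between 0.604% (tuft) and 10.2% (enterocyte) of a class lay within 0.1 of the gate. Library 2D-1 stood apart from the others. Of the 27 clusters found without the gates, a goblet cluster of 2530 cells drew 2120 cells from 2D-1 and an enterocyte cluster of 1145 cells drew 1082 from it, and Fut2 and Muc3 were among the leading genes of these clusters. Its median share of mitochondrial UMIs was 6.25%, and that of 2D-2 was 3.71%, against 4.48% in 0D-1 and 3.96% in 0D-2. Several differences of the 6 genes between the groups are therefore also given without 2D-1, and the part of RNA quality in them was not tested. Levels are counts scaled to the total UMIs of the class and library (CPM), and since each transcript is counted at its end they are compared within a gene, not between genes.

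Muc3 and Muc3a lie near each other on chromosome 5, with the lincRNA Gm3054 annotated between them, and their levels ran opposite to each other. In the GENCODE annotation of GRCm38, the build named for these data as mm10, Muc3 spans chr5:137134922-137149322 and Muc3a spans chr5:137208813-137212389, both on the minus strand and 59490 bases apart. Their annotated transcripts shared 0 of 1919 and 1863 stretches of 25 bases, and 440 of 643 aligned coding positions (68.4%) were identical. Reads of one gene could therefore be told from reads of the other at that length. Muc3a carries a note of a reference genome error in that annotation, and its annotated coding stretch of 653 bases is not a whole number of codons, so its count may be incomplete.

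Among the other genes, Muc4 (chr16:32735886-32782391) and Muc13 (chr16:33794037-33819934) lie on the plus strand, Muc1 (chr3:89229057-89233381) on the plus strand and Fut2 (chr7:45648591-45666394) on the minus strand. The 3′ end of Muc4 overlaps Muc20, which runs the other way, over 4973 bases, and Muc20 stayed at or below 0.304 CPM in every class and library. The start of Muc13 overlaps the antisense gene Gm15657 over 2838 bases. How the authors' counting used strand is not given in the sources used here, so reads in these overlaps cannot be assigned with certainty. Fut2 shared 236 stretches of 25 bases with its neighbour Sec1, and Sec1 stayed at or below 0.245 CPM.

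RefSeq promoters, 300 bases around each start on build GRCm38.p6, were matched for 4 of the 6 genes, Muc1, Muc3, Muc4 and Muc13, the last with a pair of starts, and not for Muc3a and Fut2. The RefSeq extent of Muc3 reaches to base 137166048, beyond the GENCODE gene and over the lincRNA Gm3054 for 12020 bases, and Gm3054 averaged 6.41 CPM in enterocytes. Those of Muc3, the gene with the strongest enterocyte bias, of Muc13, detected in nearly every cell, and of Muc4, highest in enteroendocrine cells, are shown 5′ to 3′ on the strand of the gene. Capitals mark GGTCAAAG, part of the direct-repeat element bound by HNF4 and related nuclear receptors (CTTTGACC on the other strand), and TTCNNNGAA, the core of a STAT element. The first of these was chosen after the Muc3 sequence had been read.
Muc3, chr5:137165997-137166296, minus strand: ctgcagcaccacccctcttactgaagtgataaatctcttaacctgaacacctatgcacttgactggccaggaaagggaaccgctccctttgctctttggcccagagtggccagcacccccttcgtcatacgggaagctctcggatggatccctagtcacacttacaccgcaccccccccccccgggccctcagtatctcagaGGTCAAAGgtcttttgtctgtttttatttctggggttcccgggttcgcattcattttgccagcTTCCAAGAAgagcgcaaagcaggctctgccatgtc
Muc13, first start, chr16:33793787-33794086, plus strand: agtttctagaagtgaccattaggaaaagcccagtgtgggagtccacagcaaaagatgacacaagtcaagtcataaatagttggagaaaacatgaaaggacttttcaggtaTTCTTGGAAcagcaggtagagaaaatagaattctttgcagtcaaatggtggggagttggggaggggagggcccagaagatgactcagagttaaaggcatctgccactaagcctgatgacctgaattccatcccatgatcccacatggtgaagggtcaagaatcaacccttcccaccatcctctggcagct
Muc13, second start, chr16:33794239-33794538, plus strand: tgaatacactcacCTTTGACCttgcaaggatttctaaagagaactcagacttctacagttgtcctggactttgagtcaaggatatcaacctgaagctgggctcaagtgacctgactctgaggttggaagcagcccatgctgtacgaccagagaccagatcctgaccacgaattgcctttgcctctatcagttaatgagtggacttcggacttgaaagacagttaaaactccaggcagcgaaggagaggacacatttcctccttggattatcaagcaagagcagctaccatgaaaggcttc
Muc4, chr16:32735636-32735935, plus strand: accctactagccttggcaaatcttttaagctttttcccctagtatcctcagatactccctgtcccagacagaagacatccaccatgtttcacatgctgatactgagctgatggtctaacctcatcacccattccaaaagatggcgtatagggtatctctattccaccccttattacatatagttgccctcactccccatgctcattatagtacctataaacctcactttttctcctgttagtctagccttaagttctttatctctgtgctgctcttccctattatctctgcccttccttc
GGTCAAAG was found once each in the Muc3 promoter and at the second Muc13 start, and in 0.962% of 32851 RefSeq promoters of this length, both strands searched. TTCNNNGAA was found once each in the Muc3 promoter and at the first Muc13 start, against 8.30% of all promoters. The core of an interferon-stimulated response element, GAAA repeated after any 2 bases, was in none of the windows of the 4 matched genes, against 3.44% of all promoters. The windows of Muc4 and Muc1 held none of the 3 motifs, and a match describes letters only.

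Of the 6 genes, Muc13 gave the most UMIs. It had 75106 UMIs in 2D-1 and 55769 in 2D-2, against 62905 in 0D-1 and 61872 in 0D-2, and 91.6% to 96.1% of the kept cells of a library held at least 1. Goblet cells, the secretory cells that make gel-forming mucus, had the highest level, with 1376 and 978 CPM in 2D-1 and 2D-2 and 947 and 900 CPM in 0D-1 and 0D-2 (1049.9 ± 220 CPM, SD, n = 4 libraries). The goblet range lay apart from that of enterocytes (569 ± 38.1 CPM), and the goblet level was 1.70 to 2.22 times the enterocyte level in each library. Tuft (545 ± 125 CPM), transit-amplifying (483 ± 40.6 CPM), enteroendocrine (426 ± 51.6 CPM), stem (374 ± 63.1 CPM) and Paneth cells (367 ± 54.0 CPM) followed, and each neighbour in this order overlapped the next. Muc13 was thus expressed across all 7 classes within a 2.86-fold range of means, from goblet cells at the top to Paneth cells at the bottom.

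Muc3 was an enterocyte gene in these crypts. Enterocytes, the absorptive cells of the villus and upper crypt, had 570 and 230 CPM in 2D-1 and 2D-2, and 191 and 184 CPM in 0D-1 and 0D-2. That was 12.8 to 20.7 times the goblet level and 3.66 to 5.10 times the stem level of the same library. Transit-amplifying cells came second (126 ± 97.6 CPM, n = 4), then stem cells (74.5 ± 54.1 CPM), and Paneth cells last (13.4 ± 15.6 CPM). Because 2D-1 was high in every class, neighbouring classes overlapped in their ranges although the order enterocyte, transit-amplifying, stem held within each library. Enterocytes were 11.6% of the cells on average and held 50.5% of the Muc3 UMIs.

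Muc3a ran the other way. Goblet cells had 219 and 144 CPM in 2D-1 and 2D-2, and 118 and 119 CPM in 0D-1 and 0D-2, and enteroendocrine cells, the hormone-producing class, had 139 and 109 CPM in 2D-1 and 2D-2, and 97.2 and 88.8 CPM in 0D-1 and 0D-2. Both classes lay apart from Paneth cells (42.8 to 72.5 CPM), and enterocytes were lowest with 23.5 and 14.1 CPM in 2D-1 and 2D-2, and 11.6 and 8.83 CPM in 0D-1 and 0D-2. Goblet cells held 9.32 to 13.4 times the Muc3a level of enterocytes in each library. The class at the top of Muc3 was thus at the bottom of Muc3a within every library, for a pair of neighbouring genes.

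**Figure D1:**
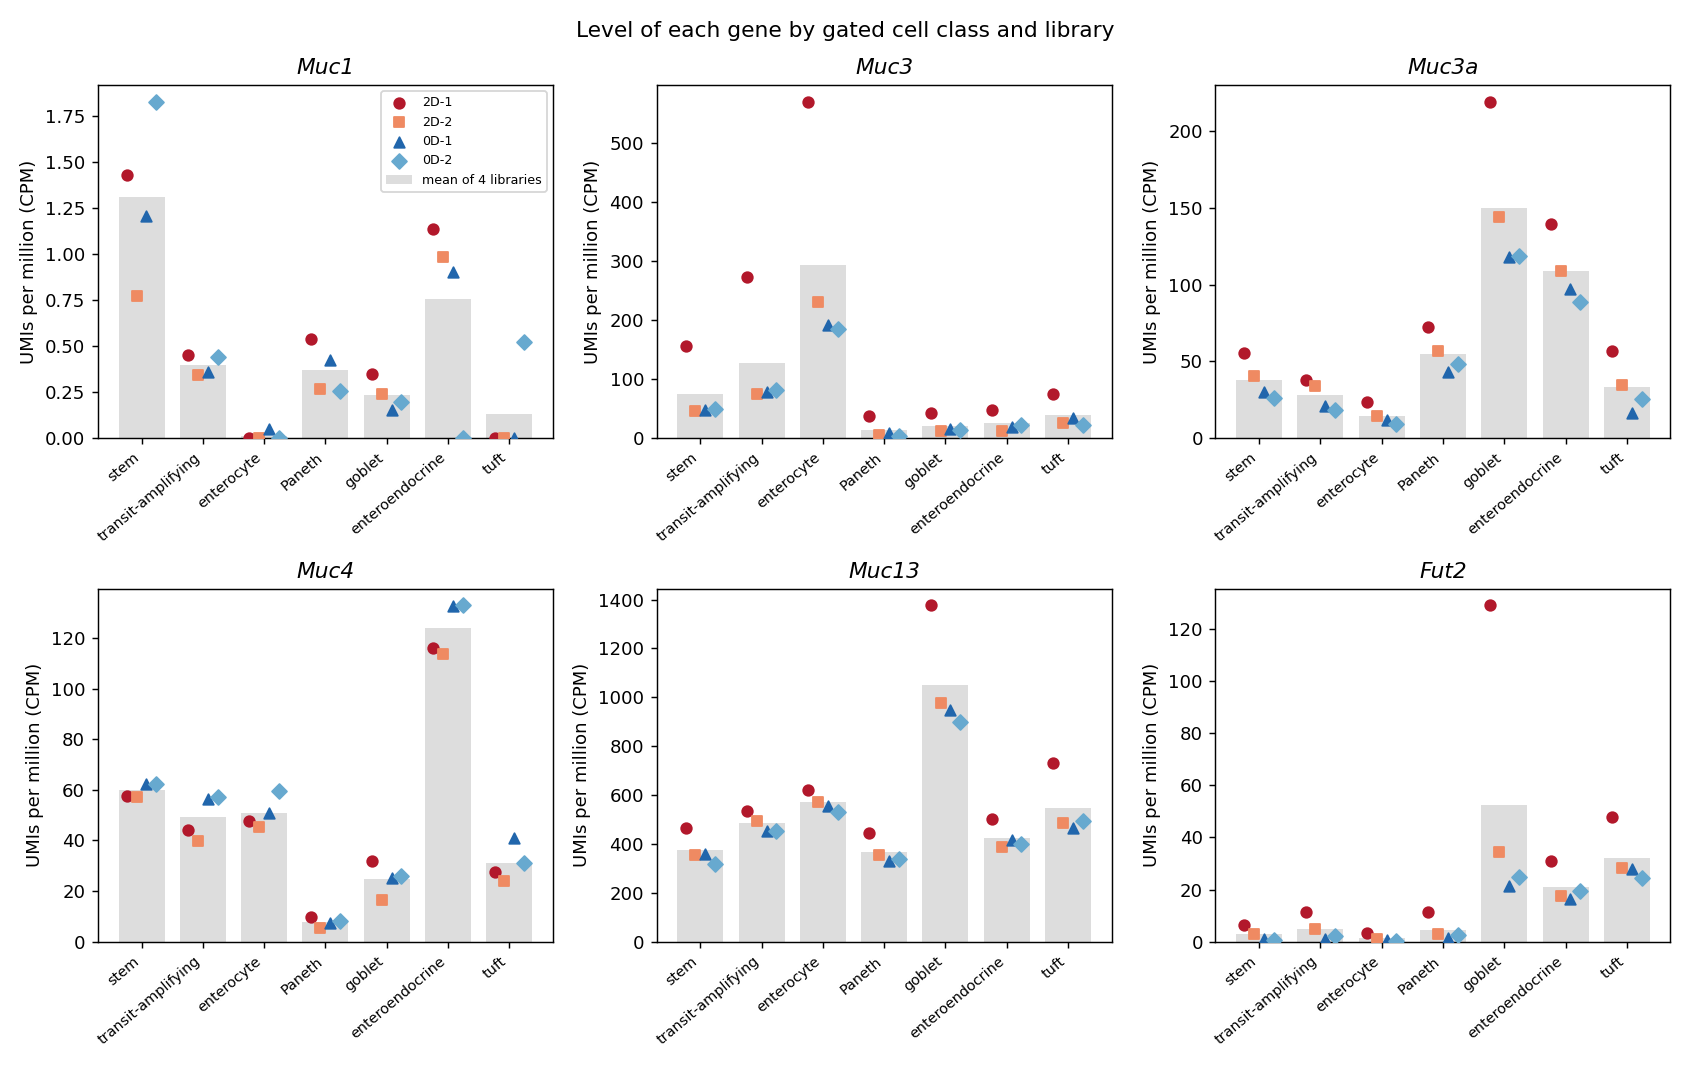
Scaled UMI level (CPM) of each gene in 7 gated classes, with a panel per gene on its own axis. Points are single libraries (2D-1, 2D-2, 0D-1, 0D-2) and grey bars the mean of 4 libraries. Muc3 peaked in enterocytes (294 CPM on average), Muc3a, Muc13 and Fut2 in goblet cells (150, 1049.9 and 52.4 CPM) and Muc4 in enteroendocrine cells (124 CPM), and 2D-1 was the highest library for Muc3, Muc3a, Muc13 and Fut2 in every class. The goblet mean of Fut2 includes 129 CPM in 2D-1, and in 0D-1 tuft cells were higher (28.05 against 21.3 CPM).

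**Figure D2:**
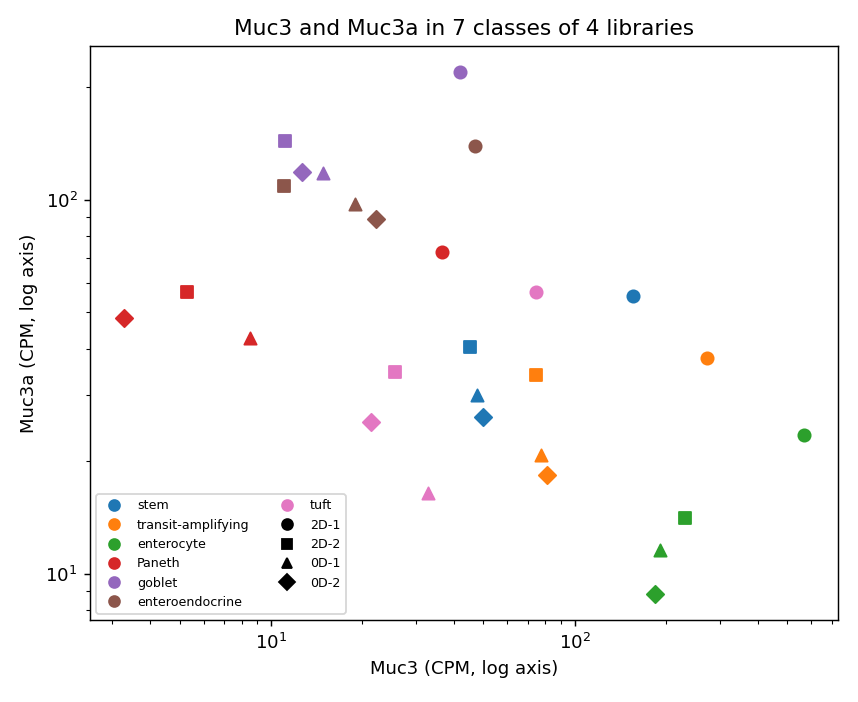
Muc3 (horizontal) against Muc3a (vertical) in CPM on log axes, 1 point for each of 28 combinations of class (colour) and library (marker). Enterocyte points lie at the lower right, with Muc3 of 184 to 570 CPM and Muc3a of 8.83 to 23.5 CPM, and goblet points at the upper left, with Muc3 of 11.1 to 41.8 CPM and Muc3a of 118 to 219 CPM.

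Muc4, a membrane mucin whose extracellular part carries growth factor-like domains, was highest in enteroendocrine cells. It had 116 and 114 CPM there in 2D-1 and 2D-2, and 133 CPM in both 0D-1 and 0D-2 (124 ± 10.2 CPM, n = 4). This range lay apart from stem cells (59.9 ± 2.87 CPM), at 1.99 to 2.13 times their level in each library. Enterocytes (50.9 ± 6.12 CPM), transit-amplifying cells (49.3 ± 8.82 CPM) and tuft cells (30.9 ± 7.37 CPM) followed with overlapping ranges, then goblet cells (24.8 ± 6.25 CPM). Paneth cells lay apart at the bottom with 9.86 and 5.29 CPM in 2D-1 and 2D-2, and 7.38 and 8.22 CPM in 0D-1 and 0D-2. Paneth cells thus held the lowest Muc4 level and the endocrine class the highest. Goblet cells were next lowest on average, but tuft cells were lower in 2D-1 (27.5 against 31.8 CPM).

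Fut2, the fucosyltransferase, was concentrated in goblet cells, which held 73.7% of its UMIs on average and were 33.3% of the cells. The goblet level was 129 and 34.2 CPM in 2D-1 and 2D-2, and 21.3 and 24.9 CPM in 0D-1 and 0D-2. Tuft cells, the chemosensory class, had 47.8 and 28.2 CPM in 2D-1 and 2D-2, and 28.05 and 24.4 CPM in 0D-1 and 0D-2, so that the goblet level was between 0.759 and 2.70 times the tuft level of the same library. Goblet and tuft cells therefore did not separate, nor did tuft and enteroendocrine cells (21.1 ± 6.73 CPM), and these 3 classes lay apart from the others. Mean levels in those were 4.80 CPM in transit-amplifying, 4.53 CPM in Paneth, 2.76 CPM in stem and 1.40 CPM in enterocyte cells.

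Muc1, the cell-surface mucin best known from ductal and gastric epithelium, was nearly undetected, with 54 and 27 UMIs in 2D-1 and 2D-2, and 44 UMIs in both 0D-1 and 0D-2. Stem cells had the highest mean, 1.31 ± 0.440 CPM, with 16 and 5 UMIs in 2D-1 and 2D-2, and 20 and 24 UMIs in 0D-1 and 0D-2. The ranges of neighbouring classes overlapped throughout. Enterocytes held 1 UMI in all, in 0D-1, and the count of 0 in the 796 enterocytes of 2D-1 allows up to 0.168 CPM. At this depth no order of the lower classes could be read for Muc1.

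**Figure D3:**
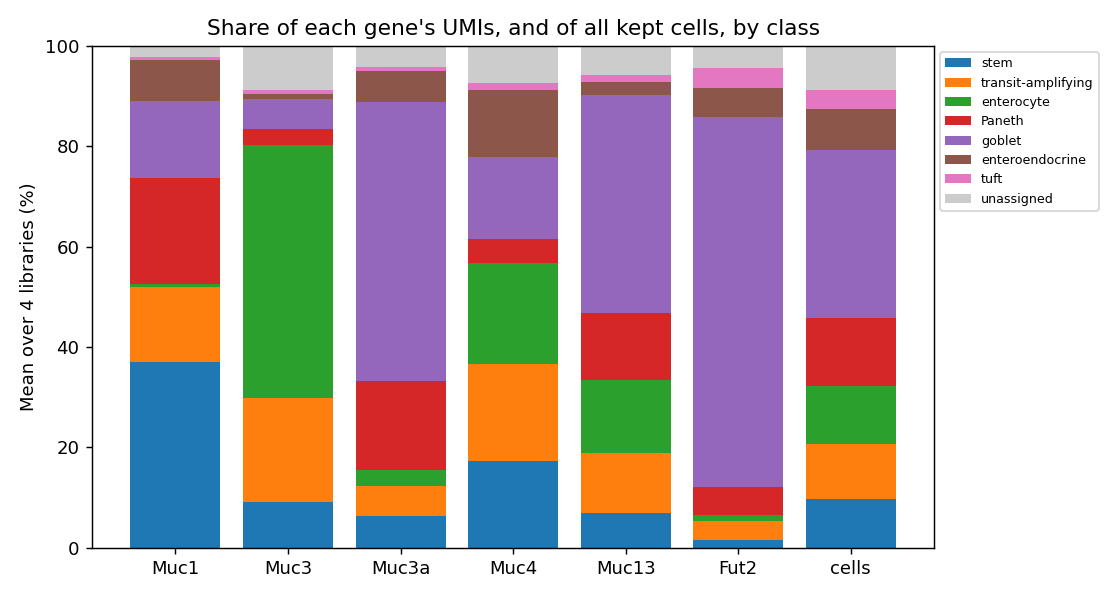
Share of each gene's UMIs that came from each class, as the mean over 4 libraries in percent, and in the last bar the share of all kept cells. Enterocytes gave 50.5% of Muc3 UMIs and 11.6% of cells, and goblet cells gave 55.5% of Muc3a, 43.3% of Muc13 and 73.7% of Fut2 UMIs and 33.3% of cells.

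Free RNA can place UMIs in cells that do not express a gene, so the same genes were read in 37 cells with T cell, B cell or myeloid markers, whose median depth was 4298 UMIs. Muc13 had at least 1 UMI in 16.2% of these, Muc3a in 10.8%, and Muc3 and Muc4 in 2.70% each. Muc1 and Fut2 had 0 of 37 cells, which allows a share of up to 8.11%. In tuft cells, with a lower median of 3244 UMIs, Muc13 was seen in 73.3% and 68.7% of cells of 2D-1 and 2D-2, and in 76.8% and 80.2% of those of 0D-1 and 0D-2, above that level in every library. Muc3 in Paneth cells was seen in 5.57% to 19.95% of cells at a class median of 13429 UMIs, and Muc3a in tuft cells in 7.59% to 17.6%, so that these low levels lay near the shares in non-epithelial cells and are not read as expression. Intervals and limits of this kind cover counting error only.

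Classes differed in depth, so each cell was also thinned to 2000 UMIs. In goblet cells Muc13 was then seen in 93.0% and 85.1% of cells in 2D-1 and 2D-2, and in 82.3% and 82.9% in 0D-1 and 0D-2, against 99.0%, 98.6%, 99.2% and 99.2% unthinned in the same order of libraries. Muc3 was seen in 63.7% and 31.7% of thinned enterocytes in 2D-1 and 2D-2, and in 30.3% and 28.9% in 0D-1 and 0D-2, where the unthinned shares were 98.5% and 82.4%, and 84.3% and 83.2%. Thinned goblet cells held Fut2 in 22.7% and 5.62% of cells in 2D-1 and 2D-2, and in 3.88% and 4.34% in 0D-1 and 0D-2, where the unthinned shares were 51.0% and 20.6%, and 15.2% and 18.8%. Thinned tuft cells held Fut2 in 8.88% and 6.02% of cells in 2D-1 and 2D-2, and in 6.59% and 5.19% in 0D-1 and 0D-2, above the goblet share in all libraries but 2D-1. At this common depth Muc13 was seen in most goblet cells of every library, and Fut2 in a minority of goblet cells of every library.

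Dividing and other cells of a class were also read apart. Dividing goblet cells, those with a cycling score at or above the gate, had 967 and 724 CPM of Muc13 in 2D-1 and 2D-2, and 777 and 730 CPM in 0D-1 and 0D-2, and the other goblet cells had 1424 and 1004 CPM in 2D-1 and 2D-2, and 971 and 923 CPM in 0D-1 and 0D-2. Muc13 was lower in the dividing cells in all 4 libraries. Muc3a (100.7 against 156 CPM on average) and Fut2 (30.1 against 55.1 CPM) were likewise lower in dividing goblet cells in 4 of 4 libraries. Muc4 (31.9 against 23.9 CPM) and Muc3 (33.4 against 18.4 CPM) were higher in them in 4 of 4 libraries. Dividing enterocytes had less Muc3 than the others in 4 of 4 libraries, 220 against 317 CPM on average. Muc13 was lower in dividing enterocytes in 4 of 4 libraries by a small margin (549 against 576 CPM on average), and Muc3a and Muc4 were higher in 2 of 4. In stem cells Muc3a was lower in the dividing cells in 4 of 4 libraries (34.7 against 47.3 CPM on average), and Muc13 (377 against 368 CPM), Muc3 (75.3 against 72.4 CPM) and Muc4 (60.7 against 58.3 CPM) were higher in 2 of 4. Muc3a thus took the same direction in goblet and stem cells, and Muc3 opposite directions in goblet cells and enterocytes. Muc3 was seen in only 7.11% to 19.7% of goblet cells of a library, near its shares in Paneth cells. Free RNA was not told apart from expression of Muc3 there.

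A few enterocytes carried Fabp6, the ileal bile acid-binding protein gene, at 10 or more UMIs per 10000. There were 32 and 15 such cells in 2D-1 and 2D-2, and 11 and 7 in 0D-1 and 0D-2. Their Muc3 level was 880 and 621 CPM in 2D-1 and 2D-2, and 503 and 599 CPM in 0D-1 and 0D-2, and other enterocytes had 557 and 219 CPM in 2D-1 and 2D-2, and 189 and 179 CPM in 0D-1 and 0D-2. Muc3 was thus higher in the Fabp6 cells of every library. Muc13 showed the same order, 887 against 562 CPM on average, in 4 of 4 libraries. This split was chosen after Fabp6 had been seen to differ between libraries, and enterocytes as a whole held 707 and 393 CPM of Fabp6 in 2D-1 and 2D-2, and 174 and 343 CPM in 0D-1 and 0D-2. The part of intestinal region in the Muc3 levels was not tested.

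Paneth cells, the crypt-base cells that secrete defensins, split by RNA content, and 1121 of the 4062 also passed another gate. Those under 10000 UMIs had 1114 and 678 CPM of Muc13 in 2D-1 and 2D-2, and 774 and 628 CPM in 0D-1 and 0D-2, and the RNA-rich ones had 383 and 305 CPM in 2D-1 and 2D-2, and 313 and 326 CPM in 0D-1 and 0D-2. Muc3a likewise was higher in RNA-poor Paneth cells in 4 of 4 libraries (136 against 48.7 CPM on average). RNA-poor cells were 571 of 1238 Paneth cells in 2D-1 and 841 of 1722 in 2D-2, against 102 of 523 in 0D-1 and 166 of 579 in 0D-2.

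Libraries 2D-1 and 2D-2 were then set against 0D-1 and 0D-2, gene by gene. With 2 libraries a group, each log2 difference (2D over 0D) comes from edgeR's quasi-likelihood fit of the UMI sums of all genes and is given with its standard error. At an adjusted p under 0.05, edgeR called 0 of the tested members in every population, and it called 0% of all genes tested in all cells, stem and transit-amplifying cells, 0.0252% in enterocytes, 0.0772% in Paneth, 0.00785% in goblet, 0.408% in enteroendocrine and 0.454% in tuft cells. At an unadjusted p under 0.05 it counted 4 of 6 members in all cells, 2 of 6 in stem, 4 of 5 in transit-amplifying and enterocyte cells, and 2 of 5 in each of the other classes. Of all genes tested, 20.3% passed that threshold in all cells, 12.2% in stem, 10.7% in transit-amplifying, 13.3% in enterocyte, 6.44% in Paneth, 8.67% in goblet, 10.1% in enteroendocrine and 11% in tuft cells. DESeq2 called Muc3a and Fut2 in all cells and in transit-amplifying cells, Muc3a in stem cells, and 0 members elsewhere. Of all genes tested, DESeq2 called 4.9% in all cells, 0.65% in stem, 0.594% in transit-amplifying, 0.914% in enterocyte, 0.154% in Paneth, 0.346% in goblet, 0.289% in enteroendocrine and 0.299% in tuft cells. Since the genes were chosen with these libraries in view, nothing is read from the counts. Muc1 passed the low-count filter in all cells and in stem cells only, and the other genes passed it in every class.

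Over all cells, Fut2 was the gene of the 6 with the largest difference. It had 33.5 and 14.5 CPM in 2D-1 and 2D-2, and 6.73 and 9.12 CPM in 0D-1 and 0D-2. Both 2D libraries lay above both 0D libraries, a gap that held for 16.3% of all genes tested in all cells. The log2 difference was 1.68 ± 0.36, or 1.08 without 2D-1. In goblet cells, with the values given above, it was 1.64 ± 0.48, and 0.58 without 2D-1, because 2D-1 reached 5.59 times the 0D mean and 2D-2 reached 1.48 times.

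In transit-amplifying cells Fut2 had 11.2 and 5.002 CPM in 2D-1 and 2D-2, and 0.819 and 2.18 CPM in 0D-1 and 0D-2 (log2 difference 2.49 ± 0.51). Stem cells had 6.43 and 3.08 CPM in 2D-1 and 2D-2, and 1.08 and 0.456 CPM in 0D-1 and 0D-2 (2.59 ± 0.48), resting on 72 and 20 UMIs in 2D-1 and 2D-2, and 18 and 6 UMIs in 0D-1 and 0D-2. Without 2D-1 these differences were 1.76 and 1.91. Fut2 was seen in 6.68% and 2.76% of stem cells of 2D-1 and 2D-2, and in 1.21% and 0.656% of those of 0D-1 and 0D-2, all under the share of up to 8.11% that the non-epithelial cells allow, so free RNA was not told apart from expression there. The same held in enterocytes, with 0.491% to 5.402% of cells. Paneth cells had 11.5 and 2.89 CPM in 2D-1 and 2D-2, and 1.21 and 2.46 CPM in 0D-1 and 0D-2, and enterocytes had 3.42 and 1.08 CPM in 2D-1 and 2D-2, and 0.802 and 0.301 CPM in 0D-1 and 0D-2. Their differences of 1.77 ± 0.56 and 2.16 ± 0.59 were 0.55 and 0.96 without 2D-1. Fut2 was lower in RNA-rich than in RNA-poor Paneth cells of every library (3.12 against 19.1 CPM on average). The part of the larger share of RNA-poor cells in the 2D libraries was not tested. Outside 2D-1, Fut2 was seen in 3.25% to 4.66% of Paneth and 1.56% to 6.77% of transit-amplifying cells, also under that limit. In 2D-1 the shares were 16.9% and 14.6%. These classes were deeper than the non-epithelial cells, with medians of 13429 and 17518.5 against 4298 UMIs, so shares are not directly comparable. In CPM, the non-epithelial cells had 0 with an upper 95% limit of 18.6. The 2D-1 levels of both classes (11.5 and 11.2 CPM) lay below it, so free RNA was not told apart from expression there either.

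In the other classes with high Fut2, tuft cells differed by 0.47 ± 0.27 on the log2 scale, and enteroendocrine cells, with 31.0 and 17.6 CPM in 2D-1 and 2D-2, and 16.2 and 19.4 CPM in 0D-1 and 0D-2, by 0.45 ± 0.24, and without 2D-1 by 0.09 and -0.01. In tuft cells the difference was -0.01 when cells that passed several gates were left out. Both 2D libraries lay above both 0D libraries in 6 of 7 classes, the exception being enteroendocrine cells, and such a gap held for 26.5% of all genes tested in stem, 21.7% in transit-amplifying, 23.3% in enterocyte, 39.3% in Paneth, 28.4% in goblet, 21.7% in enteroendocrine and 23.7% in tuft cells. The differences between classes were not tested.

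Muc3a kept a positive difference in every class without 2D-1. Over all cells it had 86.6 and 79.4 CPM in 2D-1 and 2D-2, and 48.9 and 53.1 CPM in 0D-1 and 0D-2. The 2D libraries lay close together and above both 0D libraries, with a log2 difference of 0.82 ± 0.08, and 0.85 without 2D-1. Such a gap held for 16.3% of all genes tested in all cells. Both 2D libraries lay above both 0D libraries in 7 of 7 classes. By class, this gap held for 26.5% of all genes tested in stem, 21.7% in transit-amplifying and 23.3% in enterocyte cells. It held for 39.3% in Paneth, 28.4% in goblet, 21.7% in enteroendocrine and 23.7% in tuft cells. The log2 differences lay between 0.32 ± 0.16 (Paneth) and 1.02 ± 0.28 (tuft), and without 2D-1 between 0.21 (Paneth) and 0.80 (transit-amplifying). The 37 non-epithelial cells held 40.3 CPM of Muc3a (95% interval 17.4 to 79.3), from 8 UMIs. Mean levels of stem (38.0 CPM), tuft (33.2 CPM), transit-amplifying (27.7 CPM) and enterocyte cells (14.5 CPM) lay below that value. The mean of Paneth cells (55.0 CPM) lay within its interval. Free RNA was thus not told apart from expression of Muc3a in these classes.

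Stem cells had 55.4 and 40.4 CPM of Muc3a in 2D-1 and 2D-2, and 30.0 and 26.3 CPM in 0D-1 and 0D-2 (0.74 ± 0.15, and 0.50 without 2D-1). Transit-amplifying cells had 37.8 and 33.99 CPM in 2D-1 and 2D-2, and 20.7 and 18.3 CPM in 0D-1 and 0D-2 (0.87 ± 0.11, and 0.80 without 2D-1). The difference was 0.91 ± 0.24 in enterocytes, 0.49 ± 0.18 in goblet and 0.41 ± 0.12 in enteroendocrine cells, and differences between classes were not tested. Among RNA-rich Paneth cells, Muc3a had 60.1 and 49.8 CPM in 2D-1 and 2D-2, and 40.5 and 44.4 CPM in 0D-1 and 0D-2. The part of RNA-poor cells in the Paneth difference was not tested.

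Muc3 was high in 1 of the 2D libraries. Over all cells it had 191 and 37.4 CPM in 2D-1 and 2D-2, and 67.8 and 62.9 CPM in 0D-1 and 0D-2, so 2D-1 was the highest and 2D-2 the lowest library. The log2 difference of 0.86 ± 0.66 became -0.60 without 2D-1. Enterocytes were the class in which both 2D libraries were above both 0D libraries (23.3% of all genes tested there), with a difference of 1.08 ± 0.34, and 0.31 without 2D-1. In the other 6 classes 2D-2 was at 0.536 (enteroendocrine) to 0.946 (transit-amplifying) times the 0D mean, 2D-1 was at 2.28 to 6.19 times, and the sign turned without 2D-1. In enteroendocrine cells it also turned, to -0.14, without cells that passed several gates. Enterocytes were 796 of 7025 and 455 of 7988 cells in 2D-1 and 2D-2, against 1146 of 7586 and 1018 of 7132 in 0D-1 and 0D-2. A sum over all cells depends on such shares by construction.

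**Figure D4:**
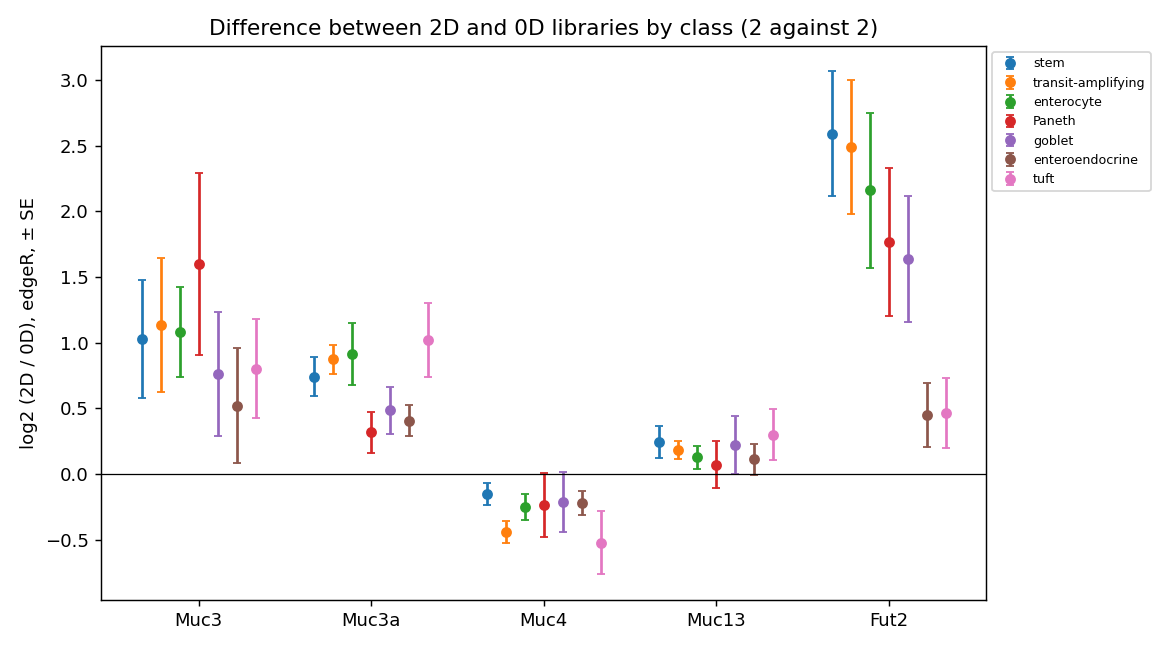
Log2 difference of 2D over 0D (vertical, edgeR, bars are standard errors) for 5 genes, with a point per class, from 2 libraries against 2. Muc3a lies above 0 in all 7 classes (0.32 to 1.02), Muc4 below 0 in all 7 (-0.52 to -0.15), and Fut2 ranges from 0.45 in enteroendocrine to 2.59 in stem cells.

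Muc4 was the gene that was lower in the 2D libraries. Over all cells it had 37.6 and 25.2 CPM in 2D-1 and 2D-2, and 43.5 and 44.5 CPM in 0D-1 and 0D-2 (log2 difference -0.39 ± 0.14, and -0.21 without 2D-2 or -0.60 without 2D-1), a gap below 0D that held for 38.2% of all genes tested. In transit-amplifying cells it had 44.1 and 39.7 CPM in 2D-1 and 2D-2, and 56.4 and 57.2 CPM in 0D-1 and 0D-2 (-0.44 ± 0.08, and -0.51 without 2D-1). Tuft cells had 27.5 and 24.0 CPM in 2D-1 and 2D-2, and 41.0 and 31.2 CPM in 0D-1 and 0D-2 (-0.52 ± 0.24, and -0.59 without 2D-1). Both 2D libraries lay below both 0D libraries in 5 of 7 classes, also in stem (-0.15 ± 0.08), enterocyte (-0.25 ± 0.10) and enteroendocrine cells (-0.22 ± 0.09), a gap that held for 18% of all genes tested in stem, 21.3% in transit-amplifying, 22.1% in enterocyte, 18.9% in enteroendocrine and 19.3% in tuft cells, against 6.84% in Paneth and 16.9% in goblet cells. In goblet and Paneth cells, where Muc4 was lowest, 2D-1 was above and 2D-2 below both 0D libraries, and the difference was positive (0.10 in both) without 2D-2.

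Muc13 differed little between the groups. Over all cells it had 679 and 599 CPM in 2D-1 and 2D-2, and 553 and 558 CPM in 0D-1 and 0D-2 (log2 difference 0.31 ± 0.09). Class by class the difference was between 0.07 ± 0.18 (Paneth) and 0.30 ± 0.19 (tuft), and both 2D libraries lay above both 0D libraries in 4 of 7 classes (transit-amplifying, enterocyte, Paneth, goblet). Such a gap held for 21.7% of all genes tested in transit-amplifying, 23.3% in enterocyte, 39.3% in Paneth and 28.4% in goblet cells. In goblet cells the log2 difference of Muc13 was 0.22 ± 0.22, and 0.10 without 2D-1. Without that library it was -0.03 in Paneth, -0.07 in enteroendocrine and -0.01 in tuft cells. The log2 difference over all cells was above that of any class, but each population was normalised on its own in these fits. By CPM, 2D-1 stood at 1.22 times the 0D mean over all cells and at 1.49 times in goblet cells. For 2D-2 these values were 1.08 and 1.06 times. Goblet cells, the class highest in Muc13, were 2247 of 7025 and 3011 of 7988 cells in 2D-1 and 2D-2. They were 2314 of 7586 and 2358 of 7132 in 0D-1 and 0D-2, and the part of these shares was not tested. Among RNA-rich Paneth cells the groups overlapped, with the values given above.

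Muc1 had 0.488 and 0.290 CPM over all cells in 2D-1 and 2D-2, and 0.387 and 0.397 CPM in 0D-1 and 0D-2, so the 0D libraries lay between the 2D libraries. Over stem cells it had 1.43 and 0.771 CPM in 2D-1 and 2D-2, and 1.20 and 1.82 CPM in 0D-1 and 0D-2. Goblet cells had 0.345 and 0.237 CPM in 2D-1 and 2D-2, and 0.152 and 0.195 CPM in 0D-1 and 0D-2, from 4 to 7 UMIs a library. Enteroendocrine cells had 1.13 and 0.979 CPM in 2D-1 and 2D-2, and 0.900 and 0 CPM in 0D-1 and 0D-2, from at most 6 UMIs a library. Both classes were higher in both 2D libraries, but Muc1 was not tested in either for its low counts.

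Library 2D-1 also carried the interferon response. The 19 interferon-response genes measured were all highest in 2D-1 in every class, and their summed level over all cells was 2554 and 650 CPM in 2D-1 and 2D-2, and 678 and 750 CPM in 0D-1 and 0D-2. In goblet cells the sums were 4125 and 992 CPM in 2D-1 and 2D-2, and 1007 and 1050.3 CPM in 0D-1 and 0D-2. Irf7, a transcription factor of that response, stood at 7.79 times the 0D mean in goblet cells of 2D-1 and 1.09 times in 2D-2. Fut2, Muc3, Muc3a and Muc13 were likewise highest in 2D-1 in every class. The interferon values move with the library beside these genes, and their part in the result was not tested.

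Cells of 1 library could also be read by whether they held an Irf7 UMI. Goblet cells with Irf7 had 129 and 29.0 CPM of Fut2 in 2D-1 and 2D-2, and 14.9 and 16.4 CPM in 0D-1 and 0D-2, and those without had 135 and 38.4 CPM in 2D-1 and 2D-2, and 27.0 and 32.6 CPM in 0D-1 and 0D-2. Fut2 was lower in the cells with Irf7 in all 4 libraries, by little in 2D-1. There the cells without Irf7 were 96 of 2247 and had a median of 4822.5 UMIs, against 7367 in those with it. Muc13 and Muc3a in goblet cells, and Muc3 in enterocytes, were higher in the cells with Irf7 in 4 of 4 libraries, for Muc3 with 575 against 429 CPM in 2D-1. Enterocytes without Irf7 were 46 in 2D-1, against 750 with it. Those with Irf7 were deeper in every library, with medians of 20202.5 against 15195 UMIs in 2D-1 and 16183 against 11931.5 in 2D-2. In 0D-1 they were 17184 against 13152, and in 0D-2 20532.5 against 14437.5, and the part of depth was not tested. This split was chosen after the values by library had been seen.

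**Figure D5:**
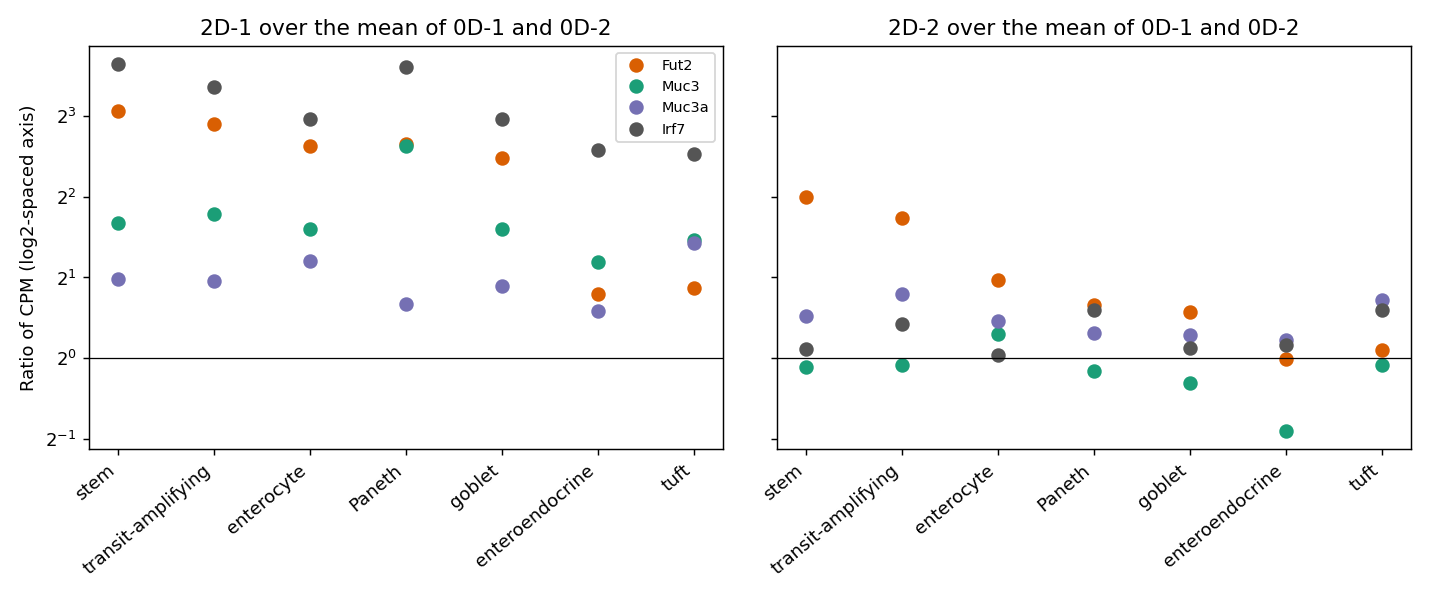
CPM of Fut2, Muc3, Muc3a and Irf7 in each 2D library divided by the mean of 0D-1 and 0D-2, by class, on a log2-spaced axis, with 2D-1 left and 2D-2 right. In 2D-1 all 4 genes lie above 1 in every class, with Irf7 at 5.77 to 12.5 times. In 2D-2 Muc3a stays above 1 in every class (1.17 to 1.74 times), and Muc3 is above 1 in enterocytes only (1.23 times).

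Genes linked to interleukin-22 had higher sums in both 2D libraries in all classes but Paneth and enteroendocrine cells. The sum of 11 such genes, led by Reg3b and Reg3g, antibacterial lectins of the gut, was 28259 and 16467 CPM in enterocytes of 2D-1 and 2D-2, and 8586 and 7597 CPM in those of 0D-1 and 0D-2. In stem cells it was 3524 and 3064 CPM in 2D-1 and 2D-2, and 1187 and 627 CPM in 0D-1 and 0D-2. Reg3b and Reg3g made up most of it there, with 2258 and 1159 CPM in 2D-1, so the sums describe these genes above all. Gene by gene, the tested members with a positive log2 difference were 8 of 10 in stem, 9 of 11 in enterocyte and 6 of 11 in goblet cells. In enteroendocrine cells the sums overlapped, with 2321 and 1699 CPM in 2D-1 and 2D-2, and 1394 and 2162 CPM in 0D-1 and 0D-2. They overlapped in Paneth cells too, with 6271 and 2284 CPM in 2D-1 and 2D-2, and 2732 and 2761 CPM in 0D-1 and 0D-2. The part of this list in the Fut2 values was not tested. The 8 genes linked to interleukin-4 and interleukin-13, led by Itln1, summed over goblet cells to 2017 and 2649 CPM in 2D-1 and 2D-2, and to 2139 and 2404 CPM in 0D-1 and 0D-2, which overlapped. Itln1 is also a Paneth marker behind the gates (37354 CPM on average in Paneth cells), and how far Paneth RNA enters this sum was not tested. Of this list edgeR called 1 of 6 tested genes higher in enteroendocrine and 1 of 6 in tuft cells (0.408% and 0.454% of all genes tested there).

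Markers of other classes also moved with the group. The 8 Paneth markers summed to 10596 and 9322 CPM in enteroendocrine cells of 2D-1 and 2D-2, and to 2633 and 4210 CPM in those of 0D-1 and 0D-2, and 8 of 8 were above both 0D libraries in both 2D libraries. Such a gap held for 21.7% of all genes tested in enteroendocrine cells. In goblet cells the sums were 12260.1 and 12364 CPM in 2D-1 and 2D-2, and 8779 and 9352 CPM in 0D-1 and 0D-2. Paneth cells were low in Muc3a, Muc4 and Fut2 next to goblet cells. The part of these transcripts in the differences was not tested.

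The wider mucin glycosylation pathway was read from 7 lists of 97 genes, of which 93 were found under the listed symbol. Over all cells 78 passed the low-count filter, and 59 of them had a positive log2 difference, with a median of 0.18 against 0.01 for all genes tested. edgeR called 0 of them at an adjusted p under 0.05, counted 21 higher and 1 lower at an unadjusted p under 0.05, and DESeq2 called 10. Of all genes tested over all cells, 11.2% were higher and 9.1% lower at that unadjusted p, which is the background for the counts of each list. By class, edgeR called 0 in every class but enteroendocrine cells, where it called 1, and DESeq2 called 2 in stem, transit-amplifying and enterocyte cells each and 1 in goblet cells. Of all genes tested, edgeR called 0.408% in enteroendocrine cells, and DESeq2 called 4.9% over all cells. By class DESeq2 called 0.65% in stem, 0.594% in transit-amplifying, 0.914% in enterocyte and 0.346% in goblet cells.

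The called gene was Muc2, the gel-forming mucin of the mucus layer, in enteroendocrine cells. It had 1228 and 929 CPM in 2D-1 and 2D-2, and 535 and 649 CPM in 0D-1 and 0D-2 (log2 difference 0.85 ± 0.14, edgeR adjusted p = 0.0146). Muc2 is 1 of the 8 goblet markers behind the gates, whose sum in enteroendocrine cells was 12490 and 15569 CPM in 2D-1 and 2D-2, and 9899 and 11311 CPM in 0D-1 and 0D-2, and how far goblet RNA enters its value was not tested. The call was lost without 0D-1 and with clusters in place of gates. In goblet cells Muc2 had 13035 and 9201 CPM in 2D-1 and 2D-2, and 9861 and 9543 CPM in 0D-1 and 0D-2, and the groups overlapped.

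The secreted mucins Muc5ac and Muc6, gel-forming mucins of the stomach and duodenal glands, were scarce. Muc5ac in goblet cells had 17.2 and 8.61 CPM in 2D-1 and 2D-2, and 2.77 and 5.38 CPM in 0D-1 and 0D-2 (log2 difference 1.498 ± 0.36, edgeR adjusted p = 0.556). Muc6 had 2.17 and 1.22 CPM there in 2D-1 and 2D-2, and 0.342 and 0.487 CPM in 0D-1 and 0D-2 (1.85 ± 0.38, edgeR adjusted p = 0.497). Both were higher in both 2D libraries, and neither passed the test. The other membrane mucins were lower still, with Podxl, the most abundant of 7 found, at 1.68 CPM in goblet cells, and 2 of them passed the filter over all cells.

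O-glycans are started by Galnt enzymes, which attach N-acetylgalactosamine. Galnt7 (515 ± 59.8 CPM), Galnt6 (283 ± 100 CPM) and Galnt12 (253 ± 13.8 CPM) were highest in goblet cells. Over all cells, 3 of 11 initiation genes tested were higher and 0 lower at an unadjusted p under 0.05 (11.2% and 9.1% of all genes). Galnt6 had 148 and 122 CPM in 2D-1 and 2D-2, and 100.2 and 112 CPM in 0D-1 and 0D-2 (0.45 ± 0.09, edgeR adjusted p = 0.152).

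Core formation and extension followed the same classes. C1galt1, the core 1 galactosyltransferase, its chaperone gene C1galt1c1 and Gcnt3, which builds core 2 and core 4 branches, averaged 270 ± 48.7, 183 ± 15.8 and 244 ± 21.9 CPM in goblet cells, the highest class of each. B3galt5, a galactosyltransferase that extends glycan chains, differed most in enterocytes. It had 17.2 and 7.98 CPM there in 2D-1 and 2D-2, and 2.88 and 1.55 CPM in 0D-1 and 0D-2 (2.55 ± 0.40, edgeR adjusted p = 0.0976). In stem cells Gcnt3 had 22.4 and 21.4 CPM in 2D-1 and 2D-2, and 12.6 and 12.0 CPM in 0D-1 and 0D-2 (0.80 ± 0.11, edgeR adjusted p = 0.102), so the groups did not overlap and the test was not passed. Over all cells, 7 of 18 tested genes of this list were higher and 0 lower at an unadjusted p under 0.05 (11.2% and 9.1% of all genes).

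Sialylation and sulfation genes split by class. St3gal4, a sialyltransferase, was an enterocyte gene (380 ± 75.9 CPM), with 353 and 288 CPM in 2D-1 and 2D-2, and 421 and 460 CPM in 0D-1 and 0D-2 (-0.47 ± 0.11, edgeR adjusted p = 0.200). Chst4, a sulfotransferase, was a goblet gene (102 ± 22.8 CPM). The sugar-donor genes Cmas and Nans averaged 231 ± 8.61 and 331 ± 24.9 CPM in goblet cells. Over all cells 5 of 18 tested genes of this list were higher and 0 lower at an unadjusted p under 0.05 (11.2% and 9.1% of all genes).

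Of the other fucosylation genes, those that make the donor GDP-fucose, Gmds and Tsta3, were high in goblet cells (600 ± 55.1 and 370 ± 38.3 CPM). The groups overlapped there, with 531 and 656 CPM of Gmds in 2D-1 and 2D-2, and 582 and 629 CPM in 0D-1 and 0D-2. Fut8, the core fucosyltransferase of N-glycans, averaged 180 ± 30.0 CPM in goblet cells. Fut1, which makes the same linkage as Fut2, had 5.17 and 5.39 CPM in goblet cells of 2D-1 and 2D-2, and 4.25 and 2.85 CPM in those of 0D-1 and 0D-2, and was chosen here after its values were seen. Over all cells 4 of 11 tested fucosylation genes were higher and 1 lower at an unadjusted p under 0.05 (11.2% and 9.1% of all genes).

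Among the partners of membrane mucins, the galectin Lgals4 (6503 ± 358 CPM) and the protease gene Tmprss2 (179 ± 17.6 CPM) were highest in goblet cells. Lgals9 had its highest mean in enterocytes (526 ± 141 CPM), with goblet cells close to it (508 ± 139 CPM). Erbb2, a receptor that MUC4 binds in other mammals, had 32.7 and 32.2 CPM in enterocytes of 2D-1 and 2D-2, and 45.2 and 41.1 CPM in those of 0D-1 and 0D-2 (-0.42 ± 0.10, edgeR adjusted p = 0.206). Lgals3 in enteroendocrine cells had 17.6 and 13.7 CPM in 2D-1 and 2D-2, and 20.1 and 32.2 CPM in 0D-1 and 0D-2 (-0.75 ± 0.23, edgeR adjusted p = 0.250). Over all cells 0 of 15 partner genes passed even an unadjusted p under 0.05 with edgeR.

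The genes most like each member in profile were sought among 4645 genes, by Pearson's r of log2(CPM + 10) over the 28 sums of 7 classes in 4 libraries, which share their libraries and their gates. Muc3 was most like Ctss (r = 0.947), Slc1a1 (0.916) and Pex11a (0.905), each highest in enterocytes, then in transit-amplifying and stem cells. Muc3a was most like Sidt1 (0.955), Fam174b (0.953) and Arfgef3 (0.950). Muc4 was most like Atp8b1 (0.978), Nfkb1 (0.970) and Dpp4 (0.967), each highest in enteroendocrine and lowest in Paneth cells. Muc13 was most like Dpagt1 (0.949), Clptm1l (0.938) and Sec61a1 (0.934), and Fut2 like Grk2 (0.895), Sec16a (0.895) and Pde2a (0.893). Muc1, with its few UMIs, came closest to Igfbp4 (0.848), Rgmb (0.791), a marker behind the stem gate, and Cdo1 (0.768). The values of r describe these sums and carry no test.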

How the data were processed

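Per the labels' protocols, small-intestinal crypts were isolated and libraries made with the 10x Genomics 3' v2 kit. The authors deposited UMI counts per gene and cell for the 4 libraries. The submitters' processing notes name Cell Ranger 2.1.1 and mm10, while the matrix headers name cellranger 7.0.0, so which version made the counts is unsure. Intron and strand settings are not given in these sources.

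Barcodes passed with 500 or more genes detected and no more than 20% of UMIs from mitochondrial genes (29731 cells). Each cell was scaled to 10000, log-transformed, and each marker was standardised and limited to ±3. A class needed a mean score of 0.5 and at least 3 detected markers, out of 120 markers. Transit-amplifying cells had no lineage score and a cycling score of 0.5. No doublet caller was run, and cells in several gates were left out in an alternative. Of the gated cells, between 53.3% (stem) and 96.3% (enteroendocrine) had the same name by Leiden clustering.

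Counts were summed per class and library and fitted over all genes with edgeR 4.0.16 (filterByExpr, TMM, quasi-likelihood test, Benjamini-Hochberg, R 4.3.3), with DESeq2 1.42.0, no filter, a replicate block, other gates and left-out libraries as alternatives. The fit was tested on simulated data. Nothing in the labels says that libraries are separate mice, so p-values measure only the spread between libraries, which may be technical. The replicate numbers give no pairing in the labels. Python 3.11.15 with scanpy 1.11.5 was used. The 6 genes, the gates and the lists were chosen with earlier results of these data known.

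Genes named outside the 6 were those of the pathway lists that passed, or the 3 of smallest p per population, the 3 of highest mean CPM per list, and the 3 most like each member among genes reaching 50 CPM. Not all of these are printed. The sequence of 1 gene end is not reported here.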

Additional observations from a re-analysis of the deposited data

How the results depend on the processing

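The class with the highest level of each of the 6 genes was the same with at most 10% mitochondrial UMIs, a class score of at least 1, Leiden clusters or without cells in several gates. These are means that include 2D-1. For Fut2 the goblet level was 2.70 times the tuft level in 2D-1, 1.21 times in 2D-2, and 0.759 and 1.02 times in 0D-1 and 0D-2. The sign of the 2D against 0D difference held in 86 of 86 alternatives for Muc3a, 84 of 86 for Muc4, 83 of 86 for Muc13, 78 of 86 for Muc3, 82 of 84 for Fut2 and 18 of 19 for Muc1. Fut2 in stem cells could not be fitted with Leiden clusters or a class score of at least 1. The cause of the turns was not tested. Counts of pathway genes called, 0 in each population but enteroendocrine cells (1), depended on the processing. DESeq2 called 10 in all cells, 2 in stem, transit-amplifying and enterocyte cells each and 1 in goblet cells, against the shares of all genes given above. Without the low-count filter there were 8 in stem, 2 in transit-amplifying, 6 in enterocyte, 3 in Paneth, 4 in goblet, 2 in enteroendocrine and 1 in tuft cells. Over all genes that setting called 583 of 18035 in stem, 38 of 17881 in transit-amplifying and 347 of 17559 in enterocyte cells. It called 208 of 17745 in Paneth, 382 of 18933 in goblet, 383 of 18252 in enteroendocrine and 211 of 15895 in tuft cells. Leiden clusters gave 0 in enteroendocrine cells. The next counts come from fits that leave 1 library in a group. Without 2D-1 or without 2D-2, these fits also called many more of all genes tested than the main fit, in every population. Nothing about the pathway is therefore read from their counts. Leaving out each library in turn gave 0 to 40 in all cells (40 without 2D-1, 18 without 2D-2), 0 to 4 in stem, 0 to 23 in transit-amplifying, 0 to 21 in enterocyte, 0 to 11 in Paneth, 0 to 40 in goblet (10 without 2D-1, 40 without 2D-2), 0 to 5 in enteroendocrine and 0 to 7 in tuft cells, with the lone library assumed to vary like the others.

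With a replicate block the counts were 2 in transit-amplifying, 2 in enterocyte, 1 in Paneth and 3 in goblet cells, and the block changed no other count. Over all genes the block called 81 of 12118, 135 of 11922, 161 of 11657 and 287 of 12734 in the same order of classes. Same-numbered libraries deviated together with r = 0.159 over all cells and between -0.125 and 0.079 by class, over 2 pairs, so the libraries share only a number.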
